A study of Mus musculus with 473 samples.

Results

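The 6 genes described here load neurons with glutamate or acetylcholine: the vesicular glutamate transporter genes Slc17a6, Slc17a7 and Slc17a8, the vesicular acetylcholine transporter gene Slc18a3, the acetylcholine-synthesizing enzyme gene Chat and the choline transporter gene Slc5a7. They were taken by name from a table of 28952 features, with earlier results of these data known, and each symbol matched 1 feature. At least 1 of them was found in 126 of 249 analysed single cells, where a cell counts as having a gene at 1 FPKM or more (fragments per kilobase, a level divided by transcript length and by how many fragments the cell had mapped). Slc17a6 was in 104 of the 249 cells, mostly from midbrain, and the acetylcholine genes were found in few cells and seldom together.

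Full-length poly(A) RNA was profiled one cell at a time by Smart-Seq2 in eGFP-positive cells sorted from Tg(Th-EGFP)DJ76Gsat/Mmnc mice on the Swiss Webster background. In this bacterial artificial chromosome line, regulatory sequence of the tyrosine hydroxylase gene Th drives the reporter, and all groups carry it; litters came from hemizygous males and wild-type females. The groups were midbrain (MB), forebrain (FB, dissected as hypothalamus) and whole olfactory bulb (OB) of postnatal day 7 (P7), with tissue of 5 mice pooled per region, and MB and FB of embryonic day 15.5 (E15.5), with tissue of 4 embryos pooled per region. The analysed cells numbered 30 of P7 MB, 31 of P7 FB, 16 of P7 OB, 88 of E15.5 MB and 84 of E15.5 FB.

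Each group is therefore 1 pool, cells are not replicates, and no difference between groups has a replicate check or a p-value. The labels gave medians of 6126.5 genes per cell in P7 MB, 5164 in P7 FB, 3310.0 in P7 OB, 6227.5 in E15.5 MB and 5554.5 in E15.5 FB, and the number of reads behind each cell is unknown. On 2 of the 3 P7 library plates the columns went against their labels, since the gene number in the label and the genes at 1 FPKM or more in the column of that name had correlations of -0.0338 and -0.0519. Exchanging the columns of these 2 plates well by well gave 0.999 on both, the value of the third P7 plate. P7 values below rest on that plate alone, and values over all 3 plates after the exchange (75 MB, 81 FB and 68 OB cells) stand beside them. The labels call every cell a dopaminergic neuron, and Th was found in 29 of 30 P7 MB, 30 of 31 P7 FB and all 16 P7 OB cells, but in 26 of 88 E15.5 MB and 27 of 84 E15.5 FB cells. The 2 noradrenergic markers Dbh and Slc6a2 were listed at 0 in every analysed cell, and summed microglial markers did not pass 11.0 FPKM in any. Summed oligodendrocyte-lineage markers reached 20 FPKM in 10 P7 MB, 8 P7 FB, 4 P7 OB, 37 E15.5 MB and 23 E15.5 FB cells. Summed serotonergic markers reached it in 2 P7 MB cells and 1 E15.5 MB cell, at up to 43.6 and 102 FPKM. Endothelial sums did so in 1 cell each of P7 FB, P7 OB and E15.5 MB. Astrocyte sums did so in 4 P7 FB, 3 E15.5 MB and 2 E15.5 FB cells, and cell cycle sums in 2 E15.5 FB cells. The part of all these markers in the results was not tested.

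As background, the SLC17 vesicular transporters use the proton pump's gradient to fill synaptic vesicles with glutamate, and a neuron that expresses one of them can release it. VGLUT2, the product of Slc17a6, is the usual form in the brainstem, thalamus and hypothalamus, and VGLUT1, the product of Slc17a7, is the usual form in the cortex. VGLUT3, the product of Slc17a8, is found in scattered neurons that mainly use another transmitter. Some dopaminergic neurons of the ventral midbrain are known to release glutamate as well, and they do so through VGLUT2. Cholinergic neurons take up choline through the Slc5a7 product, join it to an acetyl group with choline acetyltransferase (Chat), and fill vesicles through the Slc18a3 product, VAChT.

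Slc17a6 (ENSMUSG00000030500.5) lies on mouse chromosome 7 at 51622006 to 51671119, plus strand, in GENCODE M21 on build GRCm38, the assembly also called mm10. Slc17a7 lies on the same chromosome at 45163949 to 45176142 (plus), Slc17a8 on chromosome 10 at 89574020 to 89621253 (minus), and Slc5a7 on chromosome 17 at 54273590 to 54299034 (minus). Slc18a3 (ENSMUSG00000100241.1), a gene of 1 exon on chromosome 14 at 32462438 to 32464850, lies inside the span of Chat (32408203 to 32465989) on the same minus strand. It overlaps 0 exons of Chat and sits in an intron of 4 of the 8 annotated Chat transcripts, with the 2 gene starts 1139 bases apart. A fragment of unspliced Chat RNA from that intron cannot be told apart from Slc18a3 RNA, so low Slc18a3 values are uncertain to that extent.

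The start-site windows of the glutamate transporter that carried the signal and of the acetylcholine genes Slc18a3 and Chat, which share a locus, are shown, each window running from 250 bases before to 50 bases after an annotated start (RefSeq, GRCm38.p6, 5′ to 3′ on the gene's strand). Capitals mark matches to 5 motifs that were searched, all of which read the same on both strands and share no match: the homeodomain core TAATTA, the E-box CACGTG, 2 further E-boxes that read CAGCTG or else CATATG, and the cyclic AMP response element TGACGTCA.
Slc17a6, the first start, chr7:51621580-51621879, plus strand: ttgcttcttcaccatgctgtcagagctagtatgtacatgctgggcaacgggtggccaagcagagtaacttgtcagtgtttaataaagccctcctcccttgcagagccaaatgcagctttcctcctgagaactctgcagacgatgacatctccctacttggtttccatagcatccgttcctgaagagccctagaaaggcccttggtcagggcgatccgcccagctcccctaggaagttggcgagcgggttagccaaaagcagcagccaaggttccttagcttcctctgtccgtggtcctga
Slc17a6, the second start, chr7:51624387-51624686, plus strand: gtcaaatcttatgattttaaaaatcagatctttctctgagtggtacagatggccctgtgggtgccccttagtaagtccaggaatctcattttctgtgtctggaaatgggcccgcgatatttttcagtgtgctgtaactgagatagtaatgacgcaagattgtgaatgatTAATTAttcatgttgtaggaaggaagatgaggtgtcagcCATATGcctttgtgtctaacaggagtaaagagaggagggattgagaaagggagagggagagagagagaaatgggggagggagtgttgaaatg
Slc18a3, chr14:32464801-32465100, minus strand: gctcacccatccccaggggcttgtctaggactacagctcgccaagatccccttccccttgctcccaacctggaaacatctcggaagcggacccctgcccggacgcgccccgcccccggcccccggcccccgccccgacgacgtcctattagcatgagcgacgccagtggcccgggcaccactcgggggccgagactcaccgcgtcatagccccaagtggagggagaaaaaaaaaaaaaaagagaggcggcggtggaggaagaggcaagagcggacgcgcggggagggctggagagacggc
Chat, chr14:32465860-32466159, minus strand: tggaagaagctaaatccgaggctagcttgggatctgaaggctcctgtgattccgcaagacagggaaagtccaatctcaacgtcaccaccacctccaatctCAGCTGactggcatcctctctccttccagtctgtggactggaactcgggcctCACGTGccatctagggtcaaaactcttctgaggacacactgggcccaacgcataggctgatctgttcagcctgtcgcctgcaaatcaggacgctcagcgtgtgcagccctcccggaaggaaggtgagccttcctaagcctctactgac

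The second Slc17a6 window held TAATTA 81 bases and CATATG 42 bases before the start, counted from the motif's first base, whereas the first window held none of the 5. Chat held CAGCTG 150 bases and CACGTG 98 bases before its start, and the Slc18a3 window held none, with 67% G and C bases. Of all 32851 RefSeq windows, 5.29% held TAATTA, 3.91% CATATG, 16.3% CAGCTG, 7.15% CACGTG and 1.79% TGACGTCA. A match describes letters in a window and says nothing of binding.

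Slc17a6 was found in most midbrain cells at both ages, in a minority of forebrain cells and in no olfactory bulb cell. It was found in 19 of 30 P7 MB cells (63.3%, exact 95% interval 43.9 to 80.1%), at 0 to 423 FPKM with a median of 18.1. In P7 FB it was found in 3 of 31 cells (9.68%, 2.04 to 25.8%), at 5.39, 137 and 163 FPKM. All 16 P7 OB cells were listed at 0, which allows a share of up to 18.8%. In E15.5 MB it was found in 66 of 88 cells (75%, 64.6 to 83.6%), at 0 to 1002 FPKM with a median of 78.4. In E15.5 FB it was found in 16 of 84 cells (19.0%, 11.3 to 29.1%), at up to 331 FPKM. Intervals cover counting error only. The intervals of the 2 midbrain groups overlap, as do those of the 2 forebrain groups, and both midbrain intervals lie above every forebrain and bulb interval.

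Over all 3 P7 plates after the exchange, Slc17a6 was found in 51 of 75 MB cells (68%, 56.2 to 78.3%), 6 of 81 FB cells (7.41%, 2.77 to 15.4%) and 0 of 68 OB cells, which allows up to 4.41%. The order of the regions was the same on each P7 plate, with 14 of 20, 19 of 30 and 18 of 25 MB cells, 2 of 29, 3 of 31 and 1 of 21 FB cells, and 0 OB cells on any. In the bulb, 4 of 68 cells held Slc17a6 values between 0 and 0.111 FPKM, and the bulb cells also had the fewest genes per cell. On the 2 E15.5 library plates Slc17a6 was found in 30 of 43 and 36 of 45 MB cells, and in 10 of 43 and 6 of 41 FB cells.

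**Figure D1:**
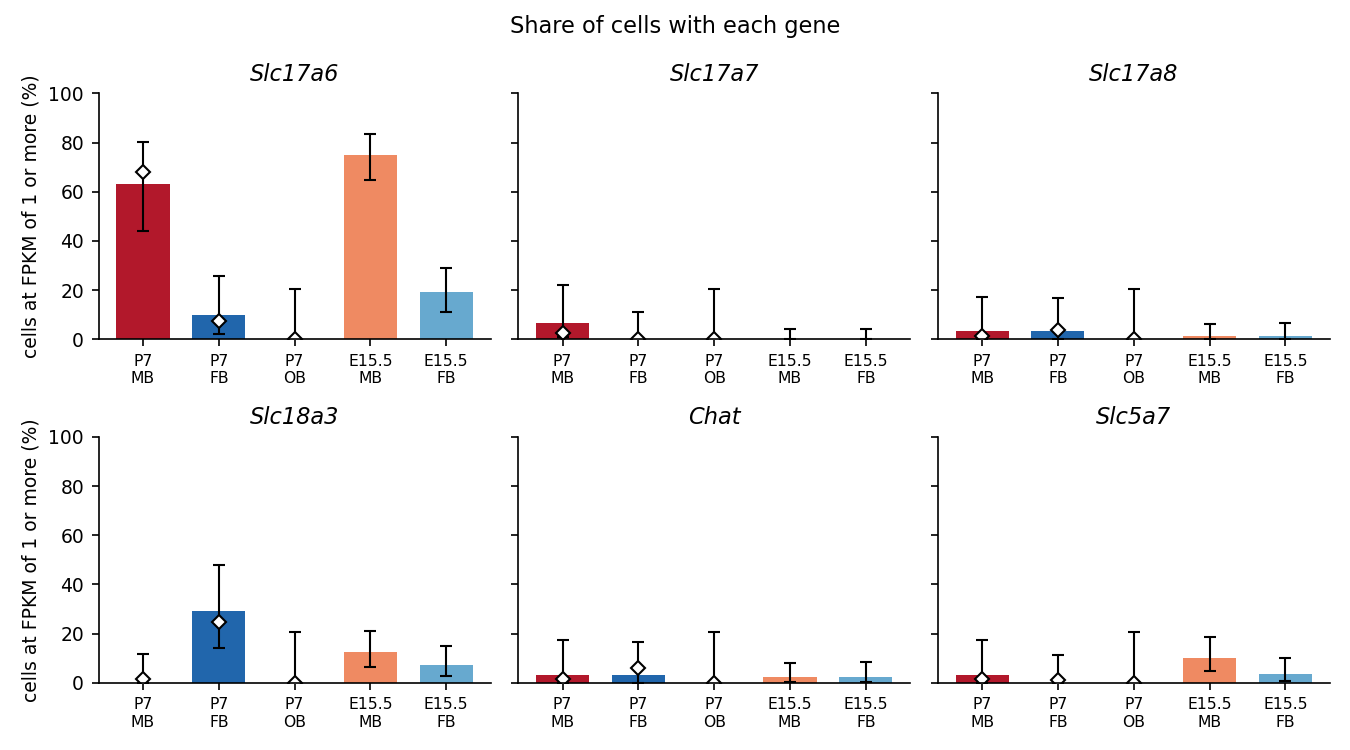
Share of cells (%) at 1 FPKM or more for each of the 6 genes in P7 MB, P7 FB, P7 OB, E15.5 MB and E15.5 FB. Bars are the analysed cells with exact 95% intervals, and diamonds are all 3 P7 plates after the exchange; Slc17a6 stands at 63.3% in P7 MB and 75% in E15.5 MB, while no other gene passes 29.03% in any group.

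Between regions of one age, group means were compared as log2((mean + 1)/(mean + 1)), over features with a mean of at least 1 FPKM in either group, and a feature was counted as apart at a 2-fold difference. Slc17a6 averaged 46.1 ± 84.4 FPKM in P7 MB and 9.82 ± 37.5 in P7 FB (SD over 30 and 31 cells), a log2 fold of 2.12. Without the highest cell of each group, the means were 33.1 FPKM in P7 MB and 4.73 in P7 FB, so the cells with the highest values, 423 and 163 FPKM, held 30.6% and 53.4% of their groups' totals. Slc18a3 ran the other way, at 0.0115 ± 0.0628 FPKM in P7 MB and 19.0 ± 48.4 in P7 FB, a log2 fold of -4.30. A single P7 FB cell at 251 FPKM held 42.6% of the Slc18a3 total, and without it the P7 FB mean was 11.3 FPKM. Of the 3 genes with a mean of 1 FPKM or more, those 2 were 2-fold apart and Slc17a8 (0.26) was not, where 24.6% of all features were 2-fold apart in P7 MB over P7 FB. Over all 3 plates the log2 folds were 2.38 for Slc17a6 and -3.54 for Slc18a3, and 12.1% of features were 2-fold apart. Chat then also reached the minimum mean, at 0.0816 FPKM in P7 MB and 1.39 in P7 FB, with a log2 fold of -1.14. Slc17a8 no longer reached it.

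At E15.5, Slc17a6 averaged 120.1 ± 157 FPKM over 88 MB cells and 19.7 ± 59.9 over 84 FB cells. The choline transporter gene Slc5a7 averaged 11.97 ± 57.95 FPKM in E15.5 MB and 0.809 ± 4.297 in E15.5 FB, a log2 fold of 2.84. A single MB cell at 459.6 FPKM held 43.6% of the Slc5a7 total, and when each cell was rescaled to the same sum the log2 fold was 1.77. Slc18a3 averaged 13.5 ± 60.1 FPKM in E15.5 MB and 11.1 ± 70.6 in E15.5 FB, a log2 fold of 0.26. The highest cells held 35.1% of the Slc18a3 total in E15.5 MB and 64.9% in E15.5 FB, and without them the means were 8.88 and 3.94 FPKM, a log2 fold of 1.0005 that lies at the 2-fold line; this alternative was chosen after seeing the data. Of the 3 genes with a mean of 1 FPKM or more, Slc17a6 and Slc5a7 were 2-fold apart with all cells, against 17.9% of all features in E15.5 MB over E15.5 FB.

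Between ages, the group mean of Slc17a6 moved with the bulk of the table. In MB its mean was 46.1 FPKM at P7 and 120.1 at E15.5, a log2 fold of -1.36, where the median of all features was -1.18 and 63.6% of features were 2-fold apart. In FB it was 9.82 FPKM at P7 and 19.7 at E15.5, a log2 fold of -0.94 beside a median of -1.20, with 65.6% of features 2-fold apart. The summed FPKM of a cell had medians of 493126 in P7 MB and 517940 in P7 FB, against 972789 in E15.5 MB and 1054297 in E15.5 FB. On the other 2 P7 plates after the exchange, the medians were lower again, at 243421 in P7 MB and 220679 in P7 FB. The sums thus also differed between plates of the same age, and FPKM levels over all P7 plates pool cells with different sums. The part of this in those levels was not tested. After each cell was rescaled to the same sum, the log2 folds of Slc17a6 were -0.29 in MB and -0.039 in FB, beside medians of -0.28 and -0.25. Age cannot be told apart from library plate, since no plate held both ages, or from sort date. Nor can age be told apart from the longer dissociation at P7 or from the density gradient that only P7 tissue went through.

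By mean, Slc18a3 and Slc5a7 stood below the bulk of the table in midbrain cells at P7, though few cells held either gene. Slc18a3 averaged 0.0115 FPKM in P7 MB and 13.5 in E15.5 MB, a log2 fold of -3.84, and -3.57 after rescaling. Slc5a7 averaged 0.0922 FPKM in P7 MB and 11.97 in E15.5 MB, a log2 fold of -3.57, and -2.61 after rescaling. Slc18a3 was found in 0 of 30 P7 MB (0 to 11.6%) and 11 of 88 E15.5 MB cells (6.41 to 21.3%). Slc5a7 was found in 1 of 30 (0.0844 to 17.2%) and 9 of 88 (4.78 to 18.5%). For both genes the intervals of the 2 ages overlap, and a single E15.5 MB cell held a large part of the total. In FB, Slc18a3 averaged 19.0 FPKM at P7 and 11.1 at E15.5, a log2 fold of 0.72, and 1.90 after rescaling. Without the highest cell of each FB group it was 1.31, from means of 11.3 FPKM at P7 and 3.94 at E15.5. Of the 4 genes with a mean of 1 FPKM or more in either MB group, Slc17a6, Slc18a3 and Slc5a7 were at least 2-fold lower at P7 as deposited, as were 58.4% of all features, and of the 2 such genes in FB 0 were 2-fold apart as deposited, although Slc18a3 passed 2-fold after rescaling or without the highest cells.

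The labels also place each cell in 1 of 13 clusters that the authors made from these cells, so levels by cluster are a description. At P7, Slc17a6 was spread unevenly over the 4 midbrain clusters. In P7.MB.1 it was found in 12 of 15 cells (80%, 51.9 to 95.7%; 35 of 39 over 3 plates), with positive cells at 2.53 to 123 FPKM and a median of 43.6. In P7.MB.2 all 4 cells held it, at 64.1, 136, 185 and 423 FPKM, and so did all 11 over 3 plates, the added ones at 27.2 to 165. P7.MB.3 had 1 of 4 cells at 25.1 FPKM (2 of 10 over 3 plates), and P7.MB.4 had 2 of 7 cells at 6.01 and 11.1 FPKM (3 of 15). Every positive P7.MB.2 cell exceeded every positive cell of P7.MB.3 and P7.MB.4 on the plate analysed, while its values overlapped those of P7.MB.1.

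In the forebrain at P7, the 10 cells of P7.FB.1 were listed at 0, and the 3 positive cells were among the 21 of P7.FB.2. Over 3 plates Slc17a6 at 1 FPKM or more was found in 0 of 26 cells of P7.FB.1, which allows up to 11.5%, and in 6 of 55 cells of P7.FB.2. Of the embryonic midbrain clusters, E15.MB.1 held it in 55 of 68 cells (80.9%, 69.5 to 89.4%) and E15.MB.2 in 11 of 20 (55%, 31.5 to 76.9%), with means of 137 ± 169 and 61.6 ± 86.01 FPKM. In FB, 15 of 60 cells of E15.FB.1 held it, against 1 of 24 cells of E15.FB.2, at 7.498 FPKM. By mean, the clusters ran from P7.MB.2 (202 ± 155 FPKM), E15.MB.1, E15.MB.2, P7.MB.1 (35.5 ± 32.4), E15.FB.1 (27.5 ± 69.6), P7.FB.2 (14.5 ± 45.1), P7.MB.3 (6.33 ± 12.5) and P7.MB.4 (2.45 ± 4.44) to E15.FB.2 (0.312 ± 1.53), with P7.FB.1 and the 3 bulb clusters at 0. No step between neighbours in that order was larger than the larger of the 2 SDs.

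**Figure D2:**
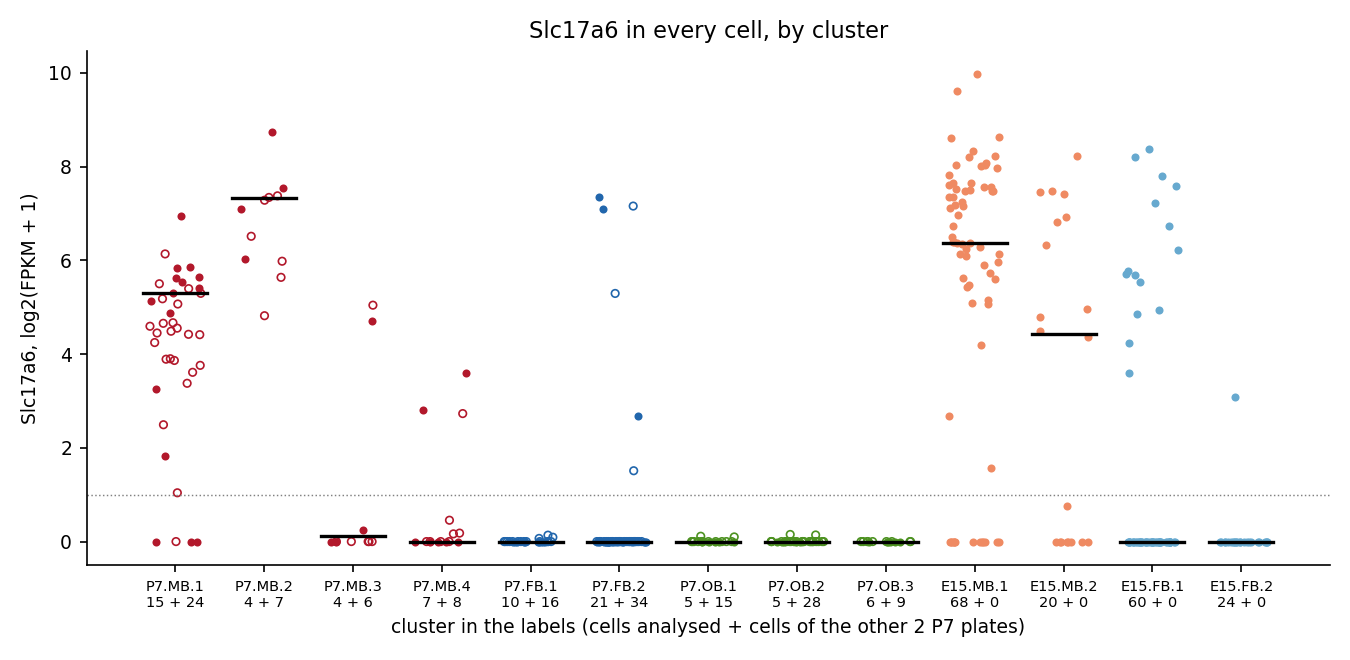
Slc17a6 as log2(FPKM + 1) in every cell, by cluster of the labels; filled points are the 249 analysed cells, hollow points the 147 cells of the other 2 P7 plates after the exchange, black lines the medians of filled points, and the dotted line 1 FPKM. The points of P7.MB.2 all lie above the line, with 11 of 11 cells positive, while those of P7.FB.1 and the bulb clusters all lie below it.

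Midbrain cells with Slc17a6 were compared with the markers of dopamine neurons in the same cell: Th, which makes the enzyme that limits dopamine synthesis, and Slc6a3, which encodes the dopamine transporter of the plasma membrane. Of the P7 MB cells with both Th and Slc6a3, 15 of 26 also had Slc17a6 (57.7%, 36.9 to 76.6%), and all 4 other cells had it (100%, 39.8 to 100%). Over 3 plates the numbers were 40 of 64 cells with both (62.5%, 49.5 to 74.3%) and 11 of 11 others (100%, 71.5 to 100%), and the intervals overlap in both sets. In E15.5 MB, 3 of 11 cells with both genes had Slc17a6 (27.3%, 6.02 to 60.97%), against 63 of 77 others (81.8%, 71.4 to 89.7%), and these intervals do not overlap. At both ages the double-positive cells thus held Slc17a6 at a lower share than the other midbrain cells, with few cells in 1 of the 2 classes each time.

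The level differed in the same direction. Among P7 MB cells with Slc17a6, its median was 38.6 FPKM in those with Th and Slc6a3 and 161 in the others; over 3 plates the medians were 23.7 and 136. Among E15.5 MB cells with Slc17a6, its median was 26.6 FPKM in the 3 with Th and Slc6a3 and 142 in the others. The 3 were at 21.6, 26.6 and 75.1 FPKM, with 1197, 3342 and 119 FPKM of Th.

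The midbrain cells without Slc6a3 lay in 1 cluster at P7 and in both clusters at E15.5. At P7 they were the 4 cells of P7.MB.2, which held Slc6a3 at 0, 0, 0.467 and 0.882 FPKM and Th at 0.401, 73.7, 96.9 and 1.24, while Th in P7.MB.1 ranged from 1812 to 5350 FPKM. At E15.5 they were most of the midbrain cells: 52 of the 66 cells with Slc17a6 had no Th at 1 FPKM, and 49 had neither Th nor Slc6a3. Within E15.MB.2, the embryonic cluster with 12 of the 15 Slc6a3-positive cells, Slc17a6 was found in 2 of 10 cells with both genes and in 9 of 10 others. Slc18a2, which encodes the vesicular monoamine transporter, was found in 16 of the 19 P7 MB and 28 of the 66 E15.5 MB cells with Slc17a6.

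**Figure D3:**
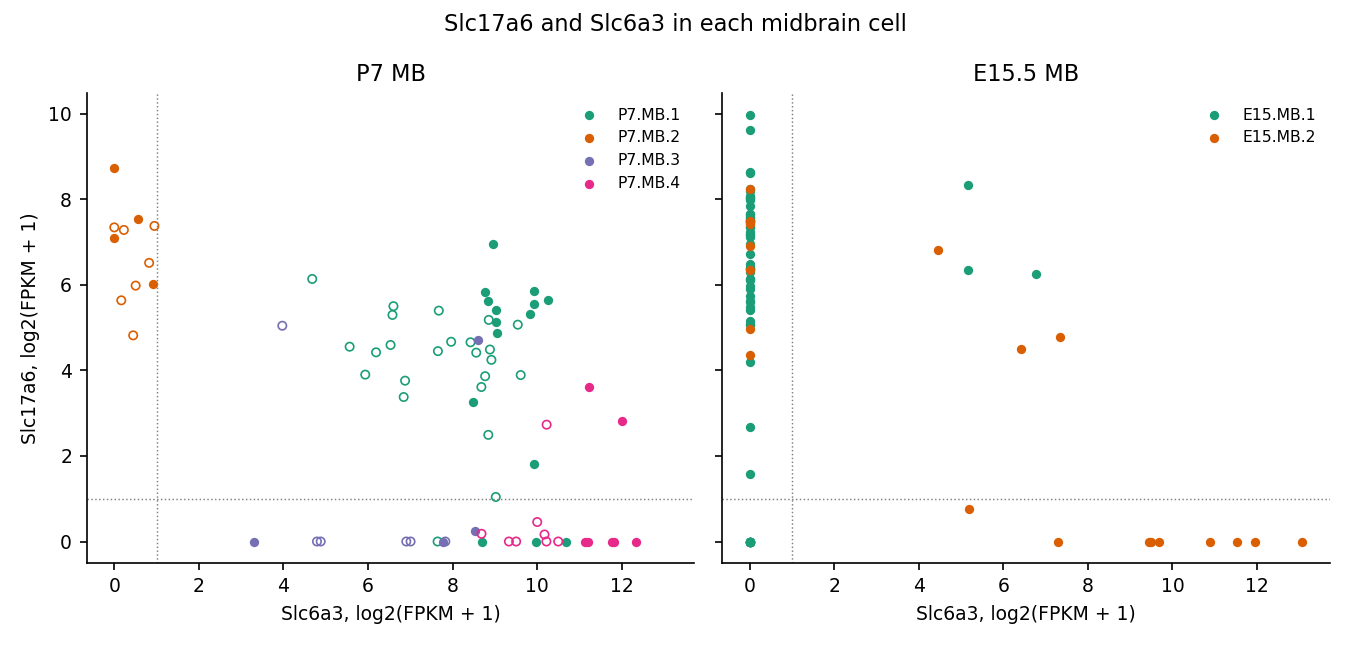
Slc17a6 against Slc6a3, both as log2(FPKM + 1), in each P7 MB cell (left; filled points analysed, hollow points from the other 2 plates after the exchange) and E15.5 MB cell (right), coloured by cluster, with dotted lines at 1 FPKM. P7.MB.2 sits at the upper left, P7.MB.1 mostly has both genes, and 9 of the 15 E15.5 MB cells with Slc6a3 lie below the Slc17a6 line.

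Cells with Slc17a6 had the higher median number of genes in 3 of the 4 groups that hold it. The medians were 7235 genes in cells with it and 5048 in cells without it in P7 FB, 6337 and 5781 in E15.5 MB, and 6480 and 5404 in E15.5 FB, whereas in P7 MB they were 6014 and 6677. The part of this difference in the shares was not tested.

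For the pairings given here, GABA genes and Slc17a6 were seldom found in one cell outside the few GABA-positive cells of P7 MB. Gad1 and Gad2, which encode the enzymes that make GABA, and Slc32a1, which encodes its vesicular transporter, were each found in 0 of the 19 P7 MB cells with Slc17a6, where 0, 1 and 0 of the 30 cells held these genes at all. Over 3 plates, 2, 3 and 2 of 51 cells with Slc17a6 held them, which was both Gad1 cells, 3 of 4 Gad2 cells and both Slc32a1 cells of P7 MB. In E15.5 MB, Slc17a6 was found in 3 of 14 cells with Gad1 (21.4%, 4.66 to 50.8%) and 63 of 74 without (85.1%, 74.96 to 92.3%). In E15.5 FB, it was found in 4 of 71 cells with Gad2 (5.63%, 1.56 to 13.8%) and 12 of 13 without (92.3%, 63.97 to 99.8%). In P7 FB, Slc17a6 was found in 0 of 27 cells with Gad1 and 3 of 4 without, and over 3 plates in 2 of 74 (2.70%, 0.329 to 9.42%) and 4 of 7 (57.1%, 18.4 to 90.1%). The intervals with and without Gad1 thus lay apart in E15.5 MB and in P7 FB over 3 plates, and those with and without Gad2 in E15.5 FB. For each of these groups 1 of the 3 GABA genes is given. The other pairings are not reported here, and these values do not stand for them.

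The other 2 vesicular glutamate transporters were nearly absent from the table. Slc17a7, the cortical form, was found in 2 of 30 P7 MB cells (6.67%, 0.818 to 22.1%), both at 7.02 FPKM and both with Slc17a6. It was listed at 0 in every analysed P7 FB, P7 OB, E15.5 MB and E15.5 FB cell, which allows shares of up to 9.68%, 18.8%, 3.41% and 3.57%. The exchange added no further Slc17a7 cell. Slc17a8 was found in 1 cell each of P7 MB (30.5 FPKM), P7 FB (21.2), E15.5 MB (2.22) and E15.5 FB (20.4) and in no P7 OB cell, and over 3 plates in 3 of 81 P7 FB cells at up to 21.2 FPKM. The P7 MB and E15.5 MB cells with Slc17a8 also held Slc17a6.

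Slc18a3 was the most widespread of the acetylcholine genes, found at P7 mostly in forebrain cells and at E15.5 in cells of both regions. It was found in 9 of 31 P7 FB cells (29.03%, 14.22 to 48.04%), at 11.1 to 251 FPKM, and in 20 of 81 over 3 plates (24.7%, 15.8 to 35.5%). No P7 MB cell reached 1 FPKM (0 of 30, 0 to 11.6%), and neither did any P7 OB cell (0 of 16). Over 3 plates Slc18a3 was found in 1 of 75 P7 MB cells, at 10.8 FPKM, and in 0 of 68 P7 OB cells. In E15.5 MB it was found in 11 of 88 cells (12.5%, 6.41 to 21.3%), at 2.91 to 417 FPKM, and in E15.5 FB in 6 of 84 (7.14%, 2.67 to 14.9%), at 1.66 to 606 FPKM. The intervals of P7 FB and both E15.5 groups overlap, and that of P7 FB lies above that of P7 MB.

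Most of the P7 forebrain cells with Slc18a3 belonged to 1 cluster. In P7.FB.1 it was found in 6 of 10 cells (60%, 26.2 to 87.8%), with a mean of 52.6 ± 76.3 FPKM and values of 26.6, 39.5, 57.6, 67.8, 83.96 and 251. In P7.FB.2 it was found in 3 of 21 cells (14.3%, 3.05 to 36.3%), at 11.1, 20.20 and 31.2 FPKM. Over 3 plates the numbers were 17 of 26 cells (65.4%, 44.3 to 82.8%) in P7.FB.1 and 3 of 55 (5.45%, 1.14 to 15.12%) in P7.FB.2. By plate, 9 of 31, 6 of 29 and 5 of 21 P7 FB cells held it.

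Every Slc18a3 cell of P7 FB held Th and Gad1, in all 20 over 3 plates, and none held Slc17a6. These were common in P7 FB as a whole, where 30 of 31 cells had Th and 27 had Gad1. At E15.5, 10 of the 11 MB cells with Slc18a3 were in E15.MB.1, 8 of the 11 also held Slc17a6, and 2 held Gad1. All 6 E15.5 FB cells with Slc18a3 were in E15.FB.1 and held Gad1 and Gad2, and 1 held Slc17a6. Of those 6, the plates held 5 of 43 and 1 of 41 cells, and 3 were under 2 FPKM.

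Chat and Slc5a7 were each found in few cells. Chat was found in 1 P7 MB cell (6.12 FPKM), 1 P7 FB cell (26.2), 0 P7 OB cells, 2 E15.5 MB cells (3.97 and 80.4) and 2 E15.5 FB cells (22.2 and 32.3). Over 3 plates it was found in 5 of 81 P7 FB cells (6.17%, 2.03 to 13.8%), all in P7.FB.1, and 4 of the 5 held Slc18a3. Of the 20 Slc18a3 cells of P7 FB over 3 plates, 4 held Chat and none held Slc5a7. Thus Slc18a3 outnumbered Chat in that group by cells and by level, with means of 12.3 FPKM for Slc18a3 and 1.39 for Chat, both per transcript length, over the same 81 cells.

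Slc5a7 was found in 9 of 88 E15.5 MB cells (10.23%, 4.78 to 18.5%), all in E15.MB.1, at 5.70 to 459.6 FPKM. It was found in 1 P7 MB cell at 2.76 FPKM, in 3 E15.5 FB cells at 19.1, 20.7 and 28.2 FPKM, and in no P7 FB or P7 OB cell (1 of 81 P7 FB cells over 3 plates, at 6.60). Of the 9 E15.5 MB cells, 8 held Slc17a6, at 17.4 to 199.5 FPKM, only 2 held Slc18a3 and 1 held Chat. The share of E15.5 MB cells with Slc17a6 was 88.9% (51.8 to 99.7%) with Slc5a7 and 73.4% (62.3 to 82.7%) without, and these intervals overlap.

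All 3 acetylcholine genes were found together in 2 of 51 cells with any of them. The first, in E15.MB.1, held Slc18a3 at 341 FPKM, Chat at 80.4 and Slc5a7 at 36.1, with Slc17a6 at 17.4. The second, in E15.FB.1, held Slc18a3 at 111 FPKM, Chat at 22.2 and Slc5a7 at 20.7, with Slc17a6 listed at 0. Neither held Th or Slc6a3 above 0. A further E15.FB.1 cell had the highest Slc18a3 of all, 606 FPKM, with Chat at 32.3 and no Slc5a7, and in all 9 of the 51 cells held 2 or more of the genes.

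**Figure D4:**
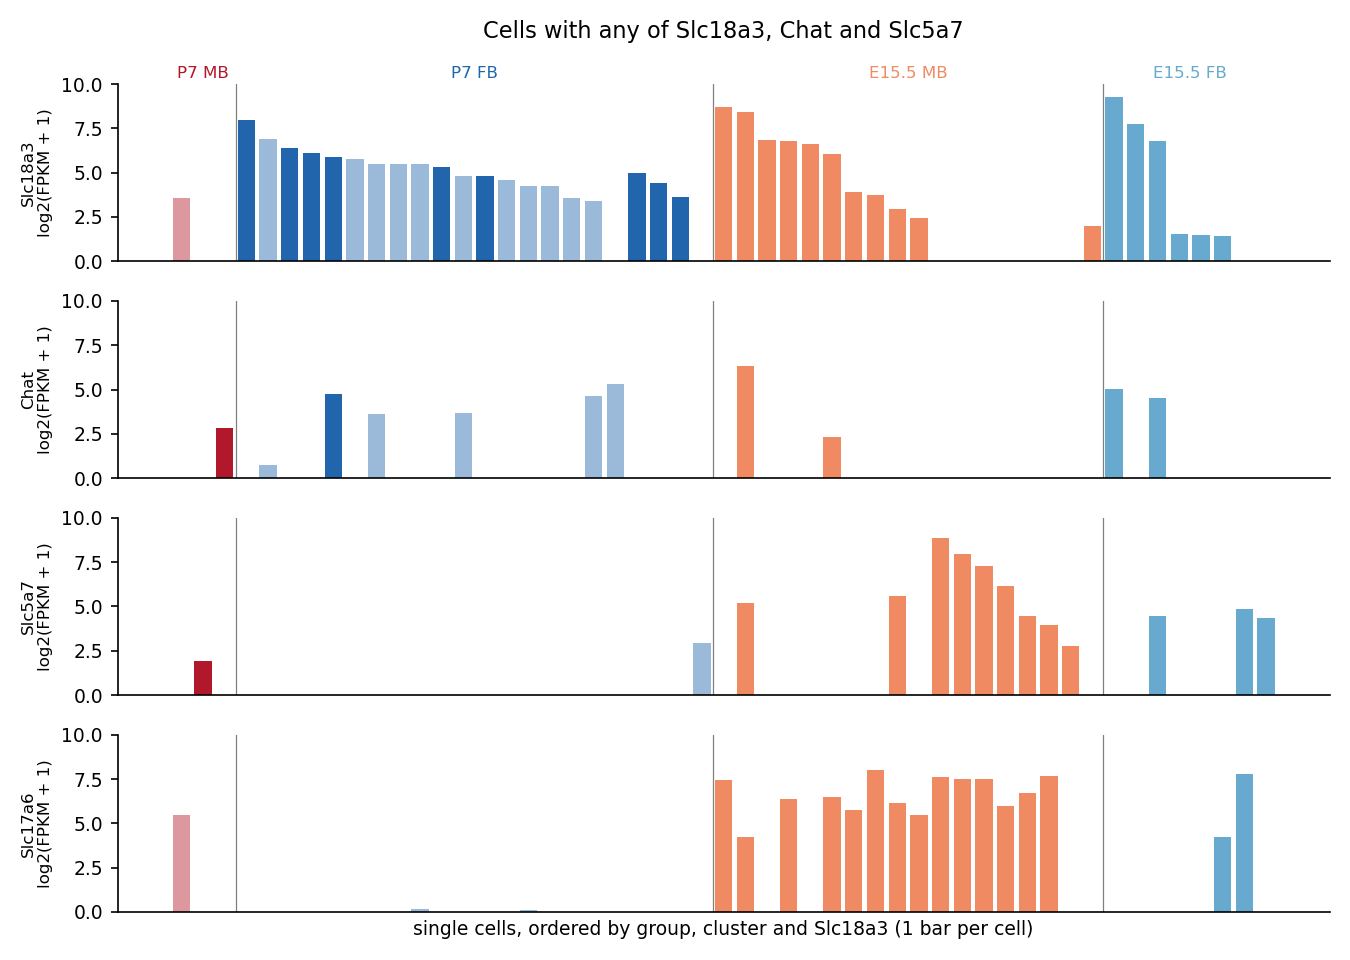
Slc18a3, Chat, Slc5a7 and Slc17a6 as log2(FPKM + 1) in the 51 cells with any of the first 3 at 1 FPKM or more, 1 bar per cell, ordered by group (P7 MB, P7 FB, E15.5 MB, E15.5 FB) and coloured by it; pale bars are the 14 cells of the other 2 P7 plates after the exchange. Slc18a3 fills most of the P7 FB bars with no Slc5a7 beside it, while Slc5a7 cells of E15.5 MB mostly lack Slc18a3 and hold Slc17a6.

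Genes around the members were read as lists, each set beside the median of all features, and counts are of genes 2-fold apart among those with a mean of 1 FPKM or more. The lists were chosen with earlier results of these data known, so their counts describe these cells and test nothing. Glutamatergic lineage factors, transcription factors known from excitatory neurons of the brain or spinal cord, were mostly higher in midbrain. In E15.5 MB over E15.5 FB, 14 of 20 were higher and 1 lower, with a median log2 fold of 1.84 against -0.12 for all features, of which 8.46% were 2-fold higher and 9.41% lower. Ebf2 (117 FPKM in MB, 0.947 in FB; log2 fold 5.92) and the LIM-homeodomain gene Lhx9 (112 and 1.14; 5.72) led them, and Lhx5 (13.2 and 29.3; -1.10) was the one lower. In P7 MB over P7 FB, 9 of 11 were higher and 2 lower, with a median of 1.62 against -0.08, where 10.8% of features were 2-fold higher and 13.8% lower. Foxp2 (260.2 FPKM in MB, 87.3 in FB), Neurod6 (49.2 and 12.2) and Ebf1 (31.01 and 1.602) had the highest MB means at P7. Several of these factors, Lmx1a and Lmx1b among them, are also known from developing dopaminergic neurons, so the list is not specific to glutamate.

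Within the midbrain, levels of several of the factors differed between clusters. Lhx9 was found in 46 of 68 E15.MB.1 cells, with a mean of 145 FPKM, and Evx1, known from spinal interneurons, in 34 of 68, at 40.9 FPKM; neither reached a mean of 20 FPKM in E15.MB.2. Lmx1a was found in 19 of 20 E15.MB.2 cells, with a mean of 187 FPKM. Foxp2 and Ebf2 were found in both embryonic clusters, Foxp2 in 25 of 68 E15.MB.1 cells, at 128 FPKM, and 19 of 20 E15.MB.2 cells, at 398, and Ebf2 in 29 of 68, at 73.99 FPKM, and 9 of 20, at 262. At P7, Neurod6 was found in 10 of 15 P7.MB.1 cells, at 87.6 FPKM, and in 1 of 4 P7.MB.2 cells. Foxp2 averaged 377 FPKM in P7.MB.1 and 347 in P7.MB.2, against 109 in P7.MB.3 and 47.4 in P7.MB.4.

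Of 10 genes that make or clear glutamate, 0 were 2-fold apart in E15.5 MB over E15.5 FB (median 0.22), where 17.9% of all features were. Of 12 in P7 MB over P7 FB, the glutamine synthetase gene Glul was higher (5.34 FPKM in MB, 1.02 in FB) and the glial glutamate uptake gene Slc1a3 lower (0.723 and 3.33), with a median of 0.14, where 24.6% of features were 2-fold apart. Over all 3 plates 1 of 11 was higher and 0 were lower, where 12.1% of all features were 2-fold apart either way. Summed astrocyte markers reached 20 FPKM in 0 P7 MB and 4 P7 FB cells, with highest sums of 5.31 and 108.8 FPKM, and their part in these values was not tested. The aspartate transaminase Got2 averaged 102 FPKM in P7 MB and 77.8 in P7 FB, and 220.5 in E15.5 MB and 172 in E15.5 FB. Of the rest of the SLC17 family, Slc17a5, which encodes the lysosomal sialic acid transporter, was the 1 of 6 with a mean of 1 FPKM or more, at 18.5 FPKM in E15.5 MB and 35.6 in E15.5 FB (log2 fold -0.90).

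Cholinergic lineage factors and trophic receptors were mostly lower in midbrain at E15.5. In E15.5 MB over E15.5 FB, 6 of 7 were lower and the neurotrophin receptor gene Ngfr was higher, at 16.3 and 3.48 FPKM (median -3.07, against -0.12 for all features, of which 9.41% were 2-fold lower). In P7 MB over P7 FB, Isl1, Nkx2-1 and Gbx2 of 6 were lower and 0 were higher (median -0.94, against -0.08 for all features, of which 13.8% were 2-fold lower). Isl1, a LIM-homeodomain gene of motor and several forebrain neurons, averaged 24.9 FPKM in E15.5 MB and 658 in E15.5 FB, and at P7 it was listed at 0 in MB and averaged 89.1 in FB. Lhx8, which specifies cholinergic neurons of the basal forebrain, was listed at 0 in E15.5 MB and averaged 45.8 FPKM in E15.5 FB. In P7.FB.1, the cluster with most Slc18a3, Isl1 was found in 7 of 10 cells, with a mean of 44.4 FPKM, and in P7.FB.2 in 14 of 21, with a mean of 110.5 FPKM. Of the genes for acetylcholine breakdown and choline supply, Prima1, the anchor of acetylcholinesterase in membranes, was the 1 of 8 that was 2-fold higher in MB over FB at each age, and 0 were lower. These counts are near the shares of all features 2-fold higher, 10.8% at P7 and 8.46% at E15.5. Over all 3 plates 2 of 8 were higher and 0 lower at P7, where 12.1% of all features were 2-fold apart either way. Acetylcholinesterase itself, encoded by Ache, averaged 358 FPKM in P7 MB and 179.5 in P7 FB (log2 fold 0.99).

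As a check on region, midbrain dopaminergic identity genes were higher in P7 MB than P7 FB for 12 of 12, where 10.8% of features were 2-fold higher, with Aldh1a1, a retinoic acid-forming enzyme gene, at 1113 and 0.961 FPKM. In E15.5 MB over E15.5 FB, 9 of 12 were higher, where 8.46% of features were, and 1 was lower, the calcium-binding protein gene Calb1 at 5.34 and 30.4 FPKM.

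Of 7906 features that reached a mean of 20 FPKM in some cluster and were found in at least 50% of its cells, the 5 whose cluster means were most like those of Slc17a6 were Gm2694 (Pearson r of log2 means 0.956 over 13 clusters), the polo-like kinase family gene Plk5 (0.917), Mab21l1 (0.885), the transcription factor gene Ebf3 (0.875) and Lypd1 (0.873). Gm2694 averaged up to 188 FPKM, in E15.MB.2, and Mab21l1 up to 203, in E15.MB.1. Over all 3 plates the first 5 of 7177 features were Tmem163 (0.932), Gm2694 (0.925), Mab21l1 (0.913), Plpp4 (0.867) and Ptprg (0.862), which share Gm2694 and Mab21l1 with the first set. For Th (-0.368), Slc6a3 (-0.0170) and Gad1 (-0.572) the value was below 0, though that of Slc6a3 was 0.0145 over all 3 plates.

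Most like Slc18a3 over the same clusters were Esyt3 (0.895), the calcitonin receptor gene Calcr (0.874), the homeobox gene Gsx1 (0.851), the growth hormone-releasing hormone gene Ghrh (0.850) and Zfp950 (0.817). The first 4 had their highest mean in P7.FB.1, Ghrh at 7368 FPKM and Calcr at 145. Over all 3 plates, Gsx1 (0.829) and Ghrh (0.819) were again among the first 5, with Rrad (0.8003), Arhgap36 (0.770) and Adgra1 (0.756). The clusters share library plates and differ in cell number, so these values describe likeness and nothing more.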

How the data were processed

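The deposited table gives FPKM values made by the authors with HISAT2 and Cuffnorm on mouse build mm10, per the submitters' processing notes; tool versions and read depth are not given in the sources used here. Identifiers were paired with symbols through GENCODE M21 (28636 of 28952 features). Of 473 cells, the labels passed 396; 249 were analysed, those on plates whose columns matched their labels' gene numbers (r of at least 0.9), and the other 147, from 2 P7 plates, entered after a well-by-well exchange as an alternative. No column duplicated another, no doublet caller was run on the sorted wells, and columns without a sample were not used.

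A gene was found at 1 FPKM or more, and shares have exact (Clopper-Pearson) 95% intervals. Where a share of 0 is said to allow up to some value, that limit is 3 counts over the number of cells. It is lower than the upper end of the exact interval. Differences are log2 ratios of means with a pseudocount of 1 FPKM, over features with a mean of 1 or more, called at 2-fold. The procedure was also run on simulated data, but the outcome is not reported here. No value given for genes found in few cells rests on that run. Each group is 1 pool, so no test was run. A value of 0 may be a failed estimate: 6 widely expressed genes were at 0 in up to 1.59% of a group's values. The genes named beyond the 6 are co-detection partners, the 5 most alike and genes of the lists averaging 20 FPKM or more somewhere, up to 6 per list; Glul, Slc1a3, Ngfr, Prima1, Gbx2 and Nkx2-1 fall outside this and were chosen after their values were seen, and some list genes are not reported here. Members and lists were chosen with earlier results of these data known. Python 3.11.15, pandas 2.3.3, numpy 2.4.6, scipy 1.17.1 and matplotlib 3.10.9 were used.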

Additional observations from a re-analysis of the deposited data

How the results depend on the processing

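Of 374 alternative values of 52 results, 321 moved by less than the set margin (1.5-fold for folds and counts, the 95% interval for shares), 53 moved and 0 reversed. Only the log2 folds of Slc17a6 and Slc18a3 have a sign that could reverse, so the 0 says nothing of shares and counts. A share of 0 cannot move at a higher threshold or within fewer of the same cells. Shares that rest on few cells have wide intervals and seldom leave them. The 321 includes such values and is therefore no measure of stability. No paired analysis was possible because each group is 1 pool and cell numbers follow accession order, and no replicate could be left out. Reads per cell are unknown, so sparse genes at 0 cannot be told from genes missed.

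The log2 fold of Slc17a6 in P7 MB over P7 FB was 2.12, and it was 1.50 with a pseudocount of 10 FPKM, 2.85 from means of log2 values and 1.20 with all 3 P7 plates taken by column name. In E15.5 MB over E15.5 FB it was 3.92 from means of log2 values. In P7 MB over E15.5 MB it was -0.29 after rescaling each cell to the same total and -2.50 by column name, and in P7 FB over E15.5 FB it was -0.039 after rescaling, -1.57 without each group's highest cell and -1.56 after the exchange. For Slc18a3, leaving out each group's highest cell, chosen after seeing the data, gave 1.0005 in E15.5 MB over E15.5 FB (0.26 with all cells) and 1.31 in P7 FB over E15.5 FB (0.72).

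By column name over 3 plates, Slc17a6 was found in 26.7% of P7 MB and 26.5% of P7 OB cells, with Th in 25.3% and 26.5%, and with Slc6a3 in 20% of P7 MB cells, while Slc18a3 was found in 11.1% of P7 FB cells. On the second E15.5 plate alone, the E15.5 FB shares were 0% for Slc17a6 with Th, Slc17a6 with Slc6a3 and Slc17a8, and 2.44% for Slc18a3. On the first plate alone, Slc17a8 and Chat in E15.5 MB and Slc5a7 in E15.5 FB were at 0%. At 5 FPKM or more, Slc17a6 with Slc6a3 in E15.5 FB, Slc17a8 in E15.5 MB and Slc5a7 in P7 MB were at 0%, and at 10 FPKM so also were Slc17a6 with Slc6a3 in P7 FB and Slc17a7 and Chat in P7 MB. Each share that came to 0% had rested on 1 to 3 cells.

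Counts of features 2-fold apart, in the order P7 MB over P7 FB, P7 MB over P7 OB, P7 FB over P7 OB, E15.5 MB over E15.5 FB, P7 MB over E15.5 MB and P7 FB over E15.5 FB, were 3210, 6462, 6325, 2574, 8960 and 9237. With a pseudocount of 10 FPKM they were 388, 1893, 1810, 352, 4193 and 4660. From means of log2 values the first and the last 4 were 1765, 3956, 897, 4425 and 4748. The exchange gave 1457, 4030 and 3802 for the first 3, column names gave 1254, 1965 and 1878, and rescaling gave 1697, 5158 and 5642 for the last 3. The cause of these moves was not tested.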

Other observations

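Cells that failed the labels' quality control entered no comparison. Among those on the matched plates, Slc17a6 was found in 1 of 5 P7 MB cells, at 47.4 FPKM, and in 1 of 9 E15.5 FB cells, at 313 FPKM. None of the 5 P7 FB, 8 P7 OB and 7 E15.5 MB failed cells held it, and Slc17a7, Slc17a8, Slc18a3, Chat and Slc5a7 were listed at 0 or below 1 FPKM in all of these cells.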
